A study of Mus musculus with 30 samples.

Results

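Mouse embryonic stem (ES) cells of the 129-derived Sox1-GFP line were profiled as 3 samples, Mouse ES 1, Mouse ES 2 and Mouse ES 3, and the differences among those 3 samples are described here. They were found by title, and they account for 9 of the 30 arrays, since each of the 10 samples of the study was hybridised to the 3 Affymetrix Murine Genome U74 version 2 chips (U74Av2, U74Bv2 and U74Cv2). All 3 ES samples were sorted for E-cadherin, an adhesion protein of undifferentiated cells. The other 7 samples came from the same line after serum-free aggregate culture (SFEB), a floating culture in which ES cells turn into neural precursors. They were unsorted aggregates of day 1, E-cadherin-negative and E-cadherin-positive cells of day 2, Sox1-negative cells of day 3, and Sox1-positive cells of days 3, 4 and 5, Sox1 being an early neuroectodermal factor read through GFP. Every sample carries the Sox1-GFP allele. The labels do not say whether the 3 ES samples were separate cultures, so the spread between them may be technical, and each aggregate group is 1 sample.

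ES cells hold a self-renewing state through a core of transcription factors that includes Pou5f1, Sox2 and Nanog, and through the cytokine LIF, which acts on STAT3. Within that state single cells and cultures can drift between a naive condition, like the inner cell mass, and a primed one, like the later epiblast, before they commit to a lineage. Other programmes follow the culture itself: serum response factor (SRF) switches on actin and contractile genes when actin filaments form, heat shock factor switches on Hsp70 genes under stress, and imprinted genes, expressed from 1 parental copy, are known to vary between ES cultures.

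The ES label fitted the levels of its defining markers in all 3 samples. Pou5f1 had an intensity of 7572 in ES 1, against 8778 in ES 2 and 6836 in ES 3. Zfp42 had 4338 in ES 1, against 3049 and 3243, and Esrrb had 12861 in ES 1, against 10661 in ES 2 and 16886 in ES 3. Of the neural markers, Pax6 was at 170 in ES 1, against 175 and 158, and Sox1 at 173, against 156 and 138, under the median of their chip, which was 190, whereas Nes was at 670 in ES 1, against 983 and 1008. Cdh1, which encodes E-cadherin, was at 722 in ES 1, against 557 in ES 2 and 451 in ES 3.

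The arrays had median intensities between 176 and 277. The ratio of the 3′ to the 5′ actin control probe set, which rises as RNA is broken or copied incompletely, was 0.996 to 1.11 on the ES 1 arrays, against 1.15 to 1.25 on those of ES 2 and 1.64 to 1.85 on those of ES 3. ES 3 was thus the sample apart in this ratio. The aggregate arrays ran between 0.939 and 1.44. U74Cv2 was the noisiest chip for the ES samples. There 17.6% of the probe sets tested differed by more than 1 on the log2 scale between ES 1 and ES 2, 23.7% between ES 1 and ES 3, and 18.1% between ES 2 and ES 3. On U74Av2 the same shares were 5.72%, 7.17% and 2.44%.

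A gene was called apart in an ES sample when that sample differed from each of the other 2 by 1 or more, in the same direction, on the scale log2(intensity + 16), which understates the change of dim genes. An exact permutation test of 1 sample against 2 cannot go below a p-value of 0.333. The counts are therefore descriptions, and the same count for each sample is the background of the others. ES 1 was apart in 517 of 12941 genes (4.0%), ES 2 in 180 (1.39%) and ES 3 in 347 (2.68%). Of the ES 1 genes 365 were lower than in both others (2.82%) and 152 were higher (1.17%). ES 2 had 108 lower (0.835%) and 72 higher genes (0.556%), and ES 3 had 246 lower (1.9%) and 101 higher (0.78%). The excess in ES 1 was clearest where the chips were quiet: on U74Av2 ES 1 was apart in 122 genes (2.40%), ES 2 in 29 (0.571%) and ES 3 in 42 (0.827%). On U74Bv2 the counts were 145, 30 and 76. On U74Cv2 they were 250, 121 and 229, so that on this chip ES 1 and ES 3 differed little, at 7.73% and 7.08% of its genes. Without U74Cv2, 64 genes were higher and 203 lower in ES 1.

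**Figure D1:**
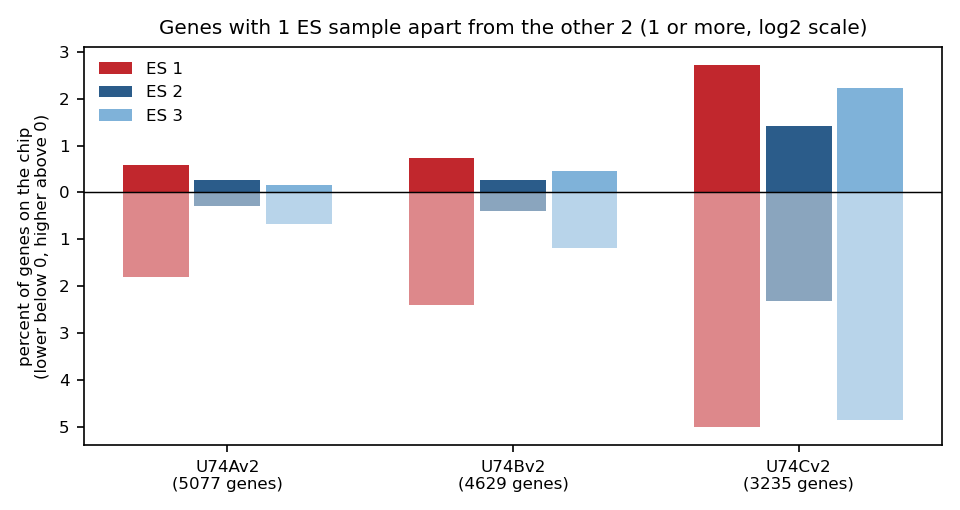
Share of the genes on each chip, in percent, for which 1 ES sample was higher (bars above 0) or lower (bars below 0) than each of the other 2 by 1 or more on the log2 scale. ES 1 (left bar of each trio) leads on U74Av2 with 1.81% lower and 0.591% higher, while ES 1 and ES 3 are close on U74Cv2, at 5.01% and 4.85% lower.

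The linear-model test limma, run over 25690 probe sets with ES 1 as the lone sample, called 12 probe sets higher and 48 lower in ES 1 at an adjusted p below 0.05 (0.234% together), and 3239 had an unadjusted p below 0.05. Counted by genes, 28 were lower (0.216% of 12941) and 5 higher (0.0386%), all on U74Av2. This test takes its spread from ES 2 against ES 3 alone, with 1 residual degree of freedom, and assumes that ES 1 varies like them. No probe set was called when the spread was pooled with the Sox1-positive samples, when ES 2 or ES 3 was left out, or when dim probe sets were kept, so the calls below are not stable.

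The genes furthest below both other ES samples were Cdk14, Adgrv1, Gbx2, Tagln, Pcdh18, Acta2, Bach2, Sox11, Hoxa2, Igf2, Vgf and Tgm1. Those furthest above were Hspa1a, Hspa1b, Enpp5, Pebp4, Aga, BC049715, Rptoros, Suz12, 4930404I05Rik, Fam151b, Mbd3l2 and Plekhn1. Tagln and Acta2 among them are on the SRF and actin list, Igf2 on the imprinted list, Gbx2 on the pluripotency list, Sox11 on the neural list, and Hspa1a and Hspa1b on the heat shock list. Gbx2, Acta2, Sox11 and Col4a2 were chosen for this comparison with their values known. The shares of lists that hold them thus count genes known beforehand to be apart.

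**Figure D2:**
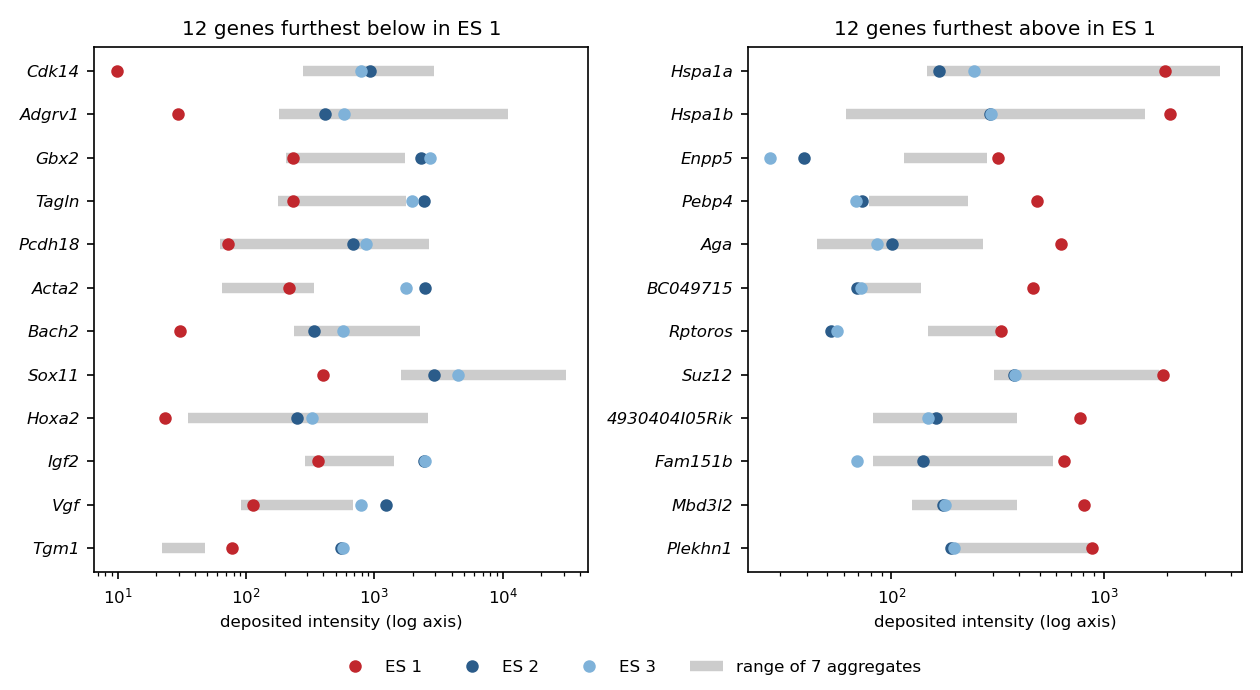
Deposited intensity (log axis) of the 12 genes furthest below both other samples in ES 1 (left) and the 12 furthest above (right), with ES 1 in red, ES 2 in dark blue and ES 3 in light blue, and the range of the 7 aggregate samples as a grey bar. ES 1 lies apart from ES 2 and ES 3 for every gene shown, by most for Cdk14, with 9.84 in ES 1, against 930 in ES 2 and 784 in ES 3.

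Gbx2, a homeobox factor that LIF and STAT3 induce and that helps hold mouse ES cells in self-renewal, was the only pluripotency gene apart in ES 1. It had 233 in ES 1, against 2296 in ES 2 and 2727 in ES 3. The difference was -3.34 ± 0.27 on the log2 scale (SE; a 10.1-fold fall; limma adjusted p = 0.00288). In the aggregates it had 382, 1595 and 538 in Sox1-positive cells of days 3, 4 and 5, against 1099 at day 1, 1725 and 336 in E-cadherin-negative and E-cadherin-positive cells of day 2, and 207 in Sox1-negative cells of day 3. ES 1 thus stood at the low end of the aggregates, and ES 2 and ES 3 above all 7. For this and every other gene, fewer cells that express it and less RNA per cell cannot be told apart in such pooled samples.

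The other pluripotency genes were not apart. Of the 30 measured in the list, 1 was lower in ES 1 (3.33%, against 2.82% of all genes) and 0 were higher. Among the 30, 14 differences were negative, and the list's median difference was 0.04, against 0.00 over all genes tested. Nanog had 10940 in ES 1, against 5465 and 6292, a difference of 0.90. Klf4, another naive factor, had 3339 in ES 1, against 1854 and 2290. Both stopped short of being apart, as did Nr5a2, a naive nuclear receptor, at 1103 in ES 1, against 566 and 750. The same genes were low in Sox1-positive cells: 23 of the 30 were lower there by 1 or more than in the other aggregates, which 4.47% of all genes were, and 0 were higher. limma called 16 of them lower (1.14% of all genes), and 22 of the 30 spanned 2 or more on the log2 scale over the 7 aggregates, a range that 13.5% of all genes reached.

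Among 18 genes of the LIF and STAT3 list, Gbx2 was lower and Pramel6, a preimplantation gene of the Prame family, was higher in ES 1. Pramel6 had 374 in ES 1, against 141 and 129. Its relative Pramel7 had 335 in ES 1, against 147 and 176, just short of 1. Stat3 itself differed by 0.42, and Socs3, the feedback inhibitor of the pathway, had 646 in ES 1, against 825 in ES 2 and 1480 in ES 3. The members thus did not share a direction, and the list's median was 0.14.

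Genes of the primed epiblast leaned low in ES 1 without standing apart one by one. The median difference of the 18 measured was -0.68, and 14 of the 18 (77.8%) were lowest in ES 1, where 37.4% of all genes were. Sox4, a factor of progenitor cells, was the 1 member apart, at 2863 in ES 1, against 6248 and 6902. One of its 4 further probe sets was also lower by more than 1, and 2 went the other way. The de novo DNA methyltransferases gave -0.78 for Dnmt3a and -0.71 for Dnmt3b, and Pou3f1, an epiblast POU factor, had 223 in ES 1, against 451 and 372. Nodal, which patterns the epiblast, had 918 in ES 1, against 788 and 700, and limma called none of the 18.

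The SRF and actin list and the imprinted list each held 8 genes apart in ES 1, the highest count of the 31 lists. Of 29 measured SRF and actin genes 8 were lower in ES 1 (27.6%, against 2.82% of all genes) and 0 were higher, and limma called 6. The median difference was -0.85, and 21 of the 29 were lowest in ES 1. Neither ES 2 nor ES 3 was apart in any of the 29. Dropping U74Cv2 removed 1 member and none of the 8. The 8 include Acta2, which was chosen with its values known and whose second probe set went the other way. They also include Actb, which the actin control probe sets did not show as low. The list was itself chosen with earlier results of these data known.

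The smooth muscle genes led this group. Acta2, smooth muscle actin, had 216 in ES 1, against 2490 in ES 2 and 1760 in ES 3, and it fell by 3.18 ± 0.30 on the log2 scale (SE; limma adjusted p = 0.00408). Tagln, the actin-binding protein transgelin, had 232 in ES 1, against 2445 and 1979 (-3.16 ± 0.28, limma adjusted p = 0.00362). Cnn1, the smooth muscle calponin, had 28.5 in ES 1, against 246 and 192, and Acta1, skeletal muscle actin, had 116 in ES 1, against 874 and 577. Each of these 4 was more than 4-fold lower in ES 1 than in either other sample. Acta2 has a second probe set, on U74Cv2, which went the other way, with 357 in ES 1, against 44.8 and 53.5, and the mean over both was -0.33; the cause was not tested.

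Anxa1, a membrane-binding annexin, also fell, with 93.4 in ES 1, against 729 and 575, and its second probe set gave 65.0 in ES 1, against 559 and 485. Krt8 and Krt18, the partner keratins of simple epithelia, were lower without a limma call: Krt8 had 165 in ES 1, against 665 and 442, and Krt18 118, against 375 and 283. Actb, cytoplasmic actin, was called by a probe set of the kind shared within a gene family, at 464 in ES 1, against 1569 and 2235. The actin control probe sets of the same chip did not show this: the 3′ one read 21461 in ES 1, against 17216 and 18151. Below the threshold came the tropomyosins Tpm1 (1057 in ES 1, against 2798 and 2116) and Tpm4 (1247, against 2953 and 2405), and the nonmuscle myosin Myh9 (1300, against 3350 and 1873). Not every actin gene was low: Actg1 had 14490 in ES 1, against 12521 and 13810, Actg2 had 985, against 698 and 813, and Srf itself 1815, against 1641 and 1429.

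The aggregates were set against the ES levels for both smooth muscle genes. Acta2 spanned 65.6 to 340 over the 7 aggregates, so that ES 1 fell inside their range and ES 2 and ES 3 far above it. Tagln had 1764, 176 and 195 in Sox1-positive cells of days 3, 4 and 5, against 222, 629, 177 and 279 in the other aggregates in the order given above, so that 1 aggregate sample came near the ES 2 and ES 3 levels. The Sox1-positive minus other difference was -0.48 ± 0.52 for Acta2 and 0.45 ± 0.74 for Tagln (SE; limma adjusted p = 0.66 and 0.80).

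The promoters of both actins are shown because SRF binds a sequence known as the CArG box, and these genes were low together. They come from RefSeq (GRCm38.p6), run from 250 bases before the start of the gene to 50 after it, and are written on the strand of the gene. Capitals mark CArG boxes, allowing at most 1 G or C among the A or T bases of the middle.
Acta1, chr8:123894726-123895025, minus strand: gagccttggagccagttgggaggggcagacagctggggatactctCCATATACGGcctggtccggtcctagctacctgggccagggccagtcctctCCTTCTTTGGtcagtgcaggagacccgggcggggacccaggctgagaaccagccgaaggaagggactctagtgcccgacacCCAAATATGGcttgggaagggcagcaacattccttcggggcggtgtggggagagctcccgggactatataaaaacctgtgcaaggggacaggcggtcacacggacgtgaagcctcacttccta
Acta2, chr19:34255324-34255623, minus strand: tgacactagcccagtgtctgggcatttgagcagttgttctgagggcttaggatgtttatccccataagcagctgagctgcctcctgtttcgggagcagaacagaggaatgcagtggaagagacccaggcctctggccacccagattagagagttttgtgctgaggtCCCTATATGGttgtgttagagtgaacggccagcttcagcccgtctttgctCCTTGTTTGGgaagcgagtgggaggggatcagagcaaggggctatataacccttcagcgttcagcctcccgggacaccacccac

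Acta1 held 3 such boxes, of which 1 was exact, and Acta2 held 2, neither of them exact. The motif reads alike on both strands. In this relaxed form it stood in 10.0% of the 27025 promoters of the table and in its exact form in 1.57%. Among the members of the SRF list with a promoter in the table, 9 of 24 held the relaxed form. Of the 6 among them that were lower in ES 1, 2 held the relaxed form and 1 the exact form. Of all genes lower in ES 1 with a promoter, 33 of 283 held the relaxed form (11.7%). That was close to the share over all promoters and to the 9.04% of the genes tested. Cnn1 held none in this window. A match is a description of the letters and says nothing of binding.

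In the imprinted list the share was higher still. Of 23 measured 8 were lower (34.8%, against 2.82% of all genes) and 0 higher, with a median of -0.44, and again neither ES 2 nor ES 3 was apart in any. Igf2, the fetal growth factor, had 362 in ES 1, against 2432 and 2496 (-2.71 ± 0.26, limma adjusted p = 0.0041). Cdkn1c, the growth-restraining cell cycle inhibitor p57, had 246 in ES 1, against 1329 and 1183 (-2.28 ± 0.27, limma adjusted p = 0.0119). These were the list's 2 limma calls. ES 2 and ES 3 were close to each other for both.

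The noncoding RNAs of the Dlk1 and Meg3 cluster were low together. Rian had 66.8 in ES 1, against 286 in ES 2 and 487 in ES 3. Meg3 had 758 in ES 1, against 1789 and 3230, and Mirg had 614, against 1727 and 1695. Dlk1, the protein-coding gene of that cluster, expressed from the other parental copy, had 396 in ES 1, against 340 and 388. The remaining 3 lower members were Gnas (3045 in ES 1, against 6602 and 6790), the trophoblast factor Ascl2 (279, against 857 and 597) and Peg3 (969, against 2010 and 1982). Mest, Ndn, Igf2r and Phlda2 each differed by less than 0.5. Without U74Cv2, which carries Rian, Mirg and Ascl2, 5 of 17 members were lower.

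Over the aggregates 10 of the 23 imprinted genes spanned 2 or more, against 13.5% of all genes, and 4 of the 8 that were lower in ES 1 did, against 50.4% of all genes lower in ES 1. Igf2 had 879, 827 and 1420 in Sox1-positive cells of days 3, 4 and 5, against 516 at day 1, 1412 and 288 in the E-cadherin-negative and E-cadherin-positive sorts of day 2, and 443 in Sox1-negative cells. Its 7 aggregates all lay below ES 2 and ES 3.

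**Figure D3:**
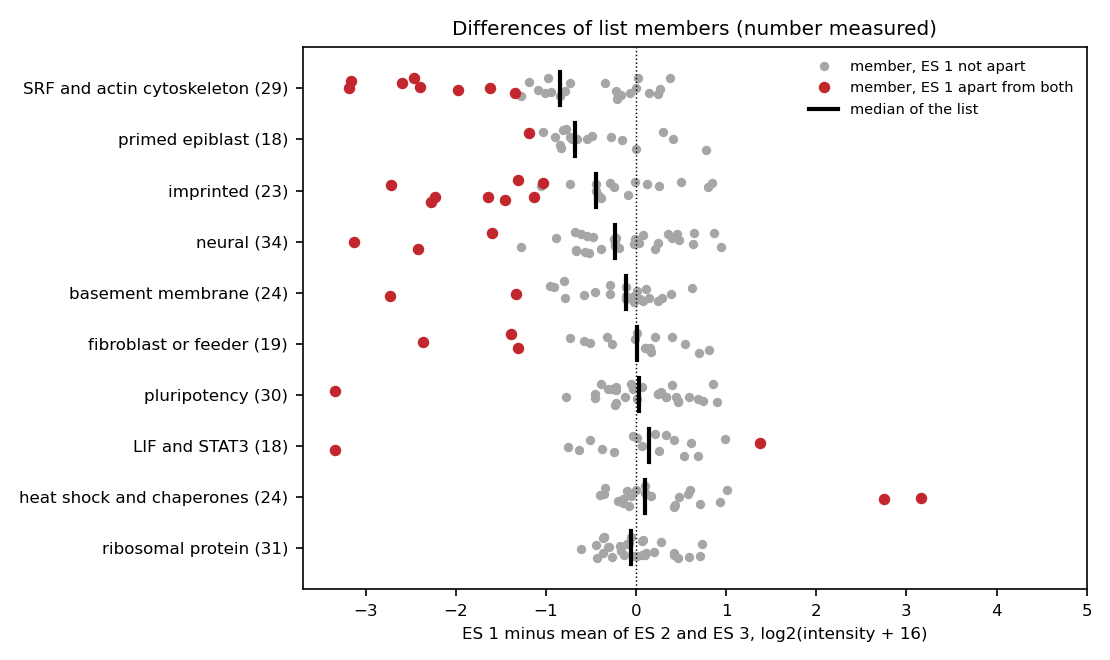
Difference of ES 1 minus the mean of ES 2 and ES 3 (log2 scale) for each measured member of 10 gene lists, red where ES 1 was apart from both other samples, with the list's median as a black bar and the median of all genes as a dotted line. The SRF and actin list (median -0.85) and the imprinted list (-0.44) hold 8 red points each, and the heat shock list holds 2 at the far right.

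Sox11, a factor of neural precursors, was expressed in ES 2 and ES 3 at a level ES 1 lacked. It had 402 in ES 1, against 2916 in ES 2 and 4525 in ES 3, a difference of -3.13 ± 0.48 (SE; limma adjusted p = 0.19). Its 3 further probe sets were lower as well: 489 in ES 1, against 1371 and 1293, then 616, against 1775 and 1791, then 147, against 236 and 174. In the aggregates Sox11 had 15250, 27336 and 31148 in Sox1-positive cells of days 3, 4 and 5, against 2601, 14736, 2349 and 1612 in the others. ES 2 and ES 3 were thus above the day 1, day 2 E-cadherin-positive and day 3 Sox1-negative aggregates, and ES 1 was below all 7.

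Genes on no list were also among those furthest below in ES 1. Cdk14, a cyclin-dependent kinase of the membrane, had 9.84 in ES 1, against 930 and 784, and 2946, 2555 and 2656 in the Sox1-positive cells, against 279, 1708, 327 and 367 in the other aggregates. Its 2 probe sets on U74Av2 were dimmer, with 10.7 in ES 1, against 43.6 and 32.0, and 85.9, against 105 and 104. Adgrv1, a very large adhesion receptor, had 29.4 in ES 1, against 410 and 585, and reached 11112 in the Sox1-positive cells of day 5. Its other probe set gave 202 in ES 1, against 200.2 and 161. Hoxa2, a hindbrain patterning gene, had 23.4 in ES 1, against 249 and 329, while its other probe set had 171, against 135 and 146.

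Bach2, a transcriptional repressor, had 30.6 in ES 1, against 340 and 575, and 1370, 1947 and 2292 in the Sox1-positive cells. Fabp7, the fatty acid binding protein of radial glia, had 32.9 in ES 1, against 188 and 322. Pcdh18, a protocadherin, had 72.9 in ES 1, against 687 and 863. Of the 6 genes Sox11, Cdk14, Adgrv1, Hoxa2, Bach2 and Fabp7, all were read on the noisy U74Cv2 chip and none passed limma in either comparison.

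Of 34 measured members of the neural list 3 were lower in ES 1 (Sox11, Fabp7 and Gap43, a growth cone protein; 8.82%, against 2.82% of all genes) and 0 were higher. The median was -0.23, 22 differences were negative, and 19 of the 34 (55.9%) were lowest in ES 1, against 37.4% of all genes. In the aggregates 26 of the 34 spanned 2 or more, against 13.5% of all genes, in a list made of genes of neural cells. Pax6 and Sox1 differed by 0.03 and 0.21 among the ES samples, and Crabp1, which carries retinoic acid, had 329 in ES 1, against 283 and 342. Nes, the filament of neural precursors, had 670 in ES 1, against 983 and 1008, short of the threshold.

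Matrix genes gave a smaller group. Col4a2, a collagen IV chain of the basement membrane, had 220 in ES 1, against 1399 and 1711, a difference of -2.73 ± 0.40 (SE; limma adjusted p = 0.188). Its probe set on U74Av2 gave 280 in ES 1, against 431 and 456, a difference of -0.63. Its partner chain Col4a1 had 403 in ES 1, against 739 and 858, and the collagen chaperone Serpinh1 had 410, against 1035 and 1081. Serpinh1 was higher in the Sox1-positive cells, with 2244, 2508 and 1979, against 727, 1315, 475 and 638 in the other aggregates (1.58 ± 0.31, limma adjusted p = 0.047). Laminin chains differed less: Lama5 gave -0.80, Lamb1 -0.79, Lama1 0.04 and Lamc1 -0.03. Of the 24 basement membrane genes measured 2 were lower in ES 1 (8.33%, against 2.82% of all genes). Col4a2 is 1 of the 2 and was chosen with its values known, so the share gives the list no support.

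Col5a2, a fibrillar collagen, fell to 108 in ES 1, against 624 and 621 (-2.37 ± 0.26, limma adjusted p = 0.00918). Fibroblast or feeder cells are another source of such transcripts, and the ES samples were sorted for E-cadherin. Of their 5 defining markers 4 were lower in ES 1 than in both others. Col1a1 had 366 in ES 1, against 912 and 948, and Col3a1, below the intensity filter, had 14.6, against 73.6 and 90.3. Col1a2 had 1302 in ES 1, against 1156 and 1253. Thy1 had 87.6 in ES 1, against 150 and 127, and Postn had 35.5, against 53 and 47.6, both under the chip median of 190. Of 19 measured members of the feeder list 3 were lower in ES 1 (15.8%, against 2.82% of all genes), and the median difference of the 19 was 0.01. Their summed intensity was 10158 in ES 1, against 10246 and 10132. The part of such cells in the collagen differences was not tested.

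Hspa1a and Hspa1b, which encode the heat-inducible Hsp70, lay furthest above the nearer of the other 2 samples in ES 1, and limma called both. Hspa1a had 1948 in ES 1, against 168 and 244 (3.17 ± 0.30, limma adjusted p = 0.00408). Hspa1b had 2063 in ES 1, against 292 and 295 (2.75 ± 0.26, limma adjusted p = 0.00408). They are near-identical neighbours, so their probe sets may read the same transcripts and count as 1 observation. Their promoters from RefSeq (GRCm38.p6), shown to let the likeness be seen, differ at 4 of 300 bases (98.7% identity), which the capitals mark.
Hspa1a, chr17:34972107-34972406, minus strand: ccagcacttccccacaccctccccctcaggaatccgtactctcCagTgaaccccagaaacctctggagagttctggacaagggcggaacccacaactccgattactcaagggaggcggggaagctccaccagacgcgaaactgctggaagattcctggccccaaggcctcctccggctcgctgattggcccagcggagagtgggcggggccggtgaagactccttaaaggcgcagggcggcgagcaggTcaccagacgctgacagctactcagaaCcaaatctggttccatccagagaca
Hspa1b, chr17:34959189-34959488, minus strand: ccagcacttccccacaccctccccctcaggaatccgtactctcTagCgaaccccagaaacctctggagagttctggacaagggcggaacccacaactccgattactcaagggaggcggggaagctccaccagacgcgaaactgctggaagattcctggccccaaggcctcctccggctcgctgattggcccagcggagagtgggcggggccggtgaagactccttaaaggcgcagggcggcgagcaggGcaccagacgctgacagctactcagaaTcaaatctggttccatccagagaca

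The rest of the chaperones were not apart. Of 24 measured, the Hsp70 pair were the 2 higher (8.33%, against 1.17% of all genes) and 0 were lower. Dnajb1, a cochaperone that heat shock factor also induces, had 461 in ES 1, against 424 and 500, Hsph1 had 2298, against 2934 and 2960, and Hsp90aa1 13752, against 18054 and 18276. Hspb1 had 859 in ES 1 and 828 in ES 2, against 207 in ES 3. In the aggregates Hspa1a was high in both sorts of day 3 and in neither later sample. It had 3521, 167 and 148 in Sox1-positive cells of days 3, 4 and 5, against 299, 275, 323 and 1254 in the other aggregates. Hspa1b had 1568, 166 and 61.1, against 441, 209.5, 248 and 1064.

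Suz12, a subunit of the Polycomb complex that methylates histone H3, rose to 1897 in ES 1, against 380.1 and 382 (2.27 ± 0.26, limma adjusted p = 0.0119). Its 2 further probe sets were higher by 0.28 and 0.74. It was the 1 gene apart of 27 on the chromatin list (3.70%, against 4.0% of all genes). Slc2a3, a glucose transporter, had 5547 in ES 1, against 1942 and 2344. Its 3 further probe sets had the same sign, with differences of 1.59, 0.19 and 0.18. In the last of these ES 1, at 3436, was below ES 3, at 4025. Dppa3, a germ cell and preimplantation gene, had 546 in ES 1, against 194 and 126, and 29.0, 64 and 37.5 in the Sox1-positive cells, against 184, 79.0, 222 and 330 in the other aggregates. Tcstv1, a gene of the transient 2-cell-like state, had 180 in ES 1, against 632 and 415, so that genes of early embryos moved both ways.

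Several genes higher in ES 1 were read by 1 probe set each. Enpp5 had 317 in ES 1, against 38.6 and 26.9, Pebp4 had 486, against 72.7 and 68.1, and Aga, a lysosomal amidase, had 628, against 101 and 85.4. Aga reached 269 at most in the aggregates, so ES 1 lay above all 7. The same held for Pebp4, whose highest aggregate had 230.0.

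Sod1, the cytosolic superoxide dismutase, was the 1 gene apart on the oxidative defence list, at 9047 in ES 1, against 30050 and 34502. Its U74Av2 probe set had 1658 in ES 1, against 6559 and 6688, and its U74Bv2 probe set 185, against 211 and 219. Laptm5, a lysosomal protein of blood cells, had 5137 in ES 1, against 16856 and 22637, and its 2 further probe sets were lower by 0.82 and 0.18. On the FGF list 2 of 22 genes were lower in ES 1 (9.09%, against 2.82% of all genes). They were Fgfbp1, a carrier of FGF, and Il17rd, a feedback inhibitor of FGF signalling. Both were read on U74Cv2, and without that chip 0 of 15 members were lower. Fgfbp1 had 585 in ES 1, against 3059 in ES 2 and 1326 in ES 3, so that ES 2 was also apart from both others.

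Krt8 and Krt18 are also genes of trophoblast and endoderm, and the defining markers of those cells were mixed against the chip median of 190. Among trophoblast markers Cdx2 had 67.6 in ES 1, against 70.6 and 59.5, Krt7 had 42.2, against 77.8 and 16.9, and Hand1 had 711, against 643 and 558. Gata4 had 502 in ES 1, against 207 and 411, Gata6 had 138, against 78.1 and 98.7, Sox17 had 93.8, against 70.7 and 85.0, Dab2 had 149, against 249 and 208, and Afp had 190.3, against 98.7 and 142. On the trophectoderm list 3 of 16 were lower in ES 1 (Krt8, Krt18 and Ascl2; 18.8%), and on the endoderm list 3 of 29 (Col4a2, Krt8 and Krt18; 10.3%). On the blood and endothelial list 2 of 11 were lower (Laptm5 and Flt1; 18.2%), against 2.82% of all genes in each case.

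No member was apart in ES 1 among 31 ribosomal protein genes, 43 respiratory chain genes, 20 genes of the p53 response, 24 of the amino acid stress response, 15 of the Notch pathway and 16 of the mesoderm and primitive streak. Their median differences lay between -0.12 and 0.35, the mesoderm list being the highest. ES 1 was apart in 4.0% of all genes, so a count of 0 in lists this short lies near that share. Among 41 cell cycle genes 3 were lower (Cdkn1c, Ccnd2 and Cdk6; 7.32%, against 2.82% of all genes).

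Further probe sets of a gene gave a check that the choice of genes did not use. For the genes lower in ES 1, 138 of 223 further probe sets had the same sign (61.9%), and 36 were themselves apart the same way. For the genes higher in ES 1, 55 of 76 had it (72.4%), and 8 were apart. Over all genes with several probe sets the share was 52.4%, with 325 of 8187 apart. The difference between these shares was not tested, and many probe sets did not repeat the direction.

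ES 2 and ES 3 also had genes of their own. Furthest above both others in ES 2 were Ccdc185 (609 in ES 2, against 75.8 in ES 1 and 52.7 in ES 3), Gatad1, Kcnma1, Rep15 and Tirap, and furthest below Tnnt2 (18.2 in ES 2, against 255 and 223), Fads6, Gast, Plcd4 and Plpp6. In ES 3, Hoxa3 had 259, against 16 in ES 1 and 35.1 in ES 2, with 2310030G06Rik, Sgca, Slc25a29 and Zkscan7 behind it. Gpatch1 had 4114 in ES 3, against 39502 and 54654, and Gchfr 4700, against 30452 and 28577, with 1700031M16Rik, 1700041B01Rik and Tuba3a also among the lowest. The other probe set of Gpatch1 went the other way, with 654 in ES 3, against 371 in ES 1 and 342 in ES 2. That of Hoxa3 had 69.6 in ES 3, against 79.4 and 71.3. The 2 further ones of Gchfr were lowest in ES 3, at 117 and 69.2. Of these 20 genes 17 were read on U74Cv2, and none is on the SRF or the imprinted list.

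Whether the genes that varied among ES samples also moved in SFEB culture was asked with the 7 aggregates alone, which share no array with the ES comparison. Of the 365 genes lower in ES 1, 184 spanned 2 or more over the aggregates (50.4%), and of the 152 higher ones 67 did (44.1%). Of the genes apart in ES 2 the share was 48.9% and in ES 3 42.4%, shares of like size. Over all genes it was 13.5%, and over genes with no ES sample apart 10.7%.

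The shares depended on signal, and the genes were split into 3 equal groups by their mean level in the aggregates. In the brightest group, 37 of 80 genes lower in ES 1 moved (46.3%), against 274 of 4314 genes in all (6.35%). There 3 of 16 genes higher in ES 1, 1 of 12 apart in ES 2 and 9 of 25 apart in ES 3 moved. In the dimmest group the shares were 55.1% for genes lower in ES 1, 49.0% for those higher, 54.3% for ES 2, 46.3% for ES 3 and 23.7% for all genes. On U74Av2 alone 48.9% of the genes lower in ES 1 moved, against 8.84% of all genes on that chip.

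**Figure D4:**
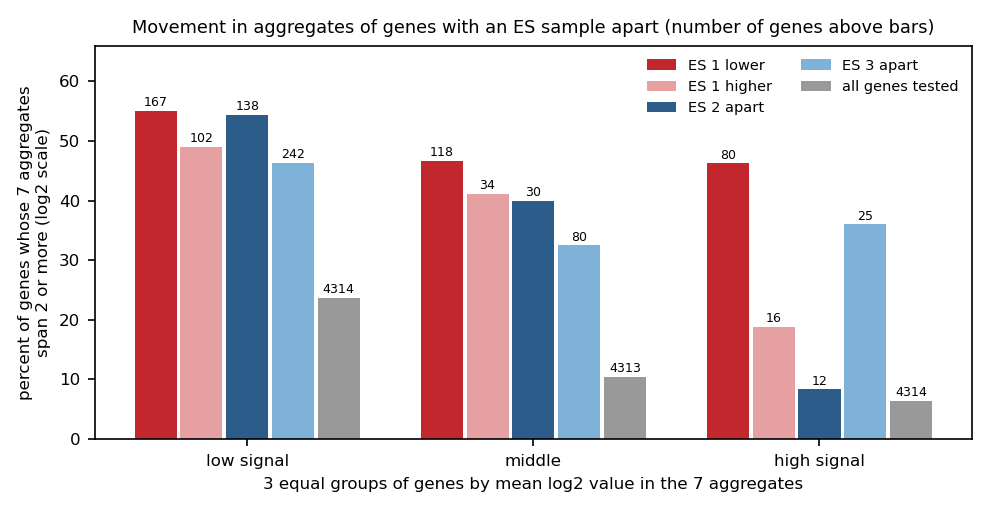
Percent of genes whose 7 aggregate samples span 2 or more on the log2 scale, in 3 equal groups of genes by mean aggregate signal, for genes with an ES sample apart and for all genes, with the number of genes above each bar. In the bright group 46.3% of the 80 genes lower in ES 1 moved, against 6.35% of all 4314 genes.

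The direction differed too. Of the 365 genes lower in ES 1, 95 were higher by 1 or more in the 3 Sox1-positive samples than in the 4 other aggregates (26.0%, against 4.69% of all genes), and 27 were lower (7.4%, against 4.47%). Of the 152 genes higher in ES 1, 6 were higher and 17 lower in the Sox1-positive samples. A lean was not limited to ES 1. Of the 101 genes higher in ES 3, 22 were higher in the Sox1-positive samples and 3 lower. For the 72 genes higher in ES 2 the counts were 10 and 3. For the 246 genes lower in ES 3 they were 10 and 16, and for the 108 lower in ES 2 they were 9 and 10. In the bright group 33 of 80 genes lower in ES 1 were higher in the Sox1-positive samples and 1 was lower. Of all 4314 genes of that group 3.73% were higher and 2.80% lower. In the dim group 23 of 167 genes lower in ES 1 were higher in the Sox1-positive samples and 16 were lower, against 5.22% and 6.61% of all its genes. The groups were formed from the same aggregate values, so a high Sox1-positive level itself helps place a gene in the bright group. limma, run on the aggregates, called 149 probe sets higher (0.58%) and 222 lower (0.864%) in Sox1-positive cells, which made 79 genes higher (0.61%) and 147 lower, or 1.75% of genes together. Of the 365, it called 6 higher and 5 lower, so most of the 95 did not pass.

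Across all 12941 genes the ES 1 difference and the Sox1-positive difference had a Pearson correlation of -0.21. It was -0.19 on U74Av2, -0.26 on U74Bv2 and -0.18 on U74Cv2. For ES 2 against the other ES samples it was 0.05 and for ES 3 0.19, 3 values that are bound together since the ES differences sum to 0. Genes share arrays and are not independent, so no p-value is given. The relation is weak. Acta2, Gbx2, Tagln and Igf2 are among the genes far down in ES 1 whose Sox1-positive difference was smaller than 1 in size. They still spanned 2.13, 2.97, 3.21 and 2.24, in that order, over the 7 aggregates.

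**Figure D5:**
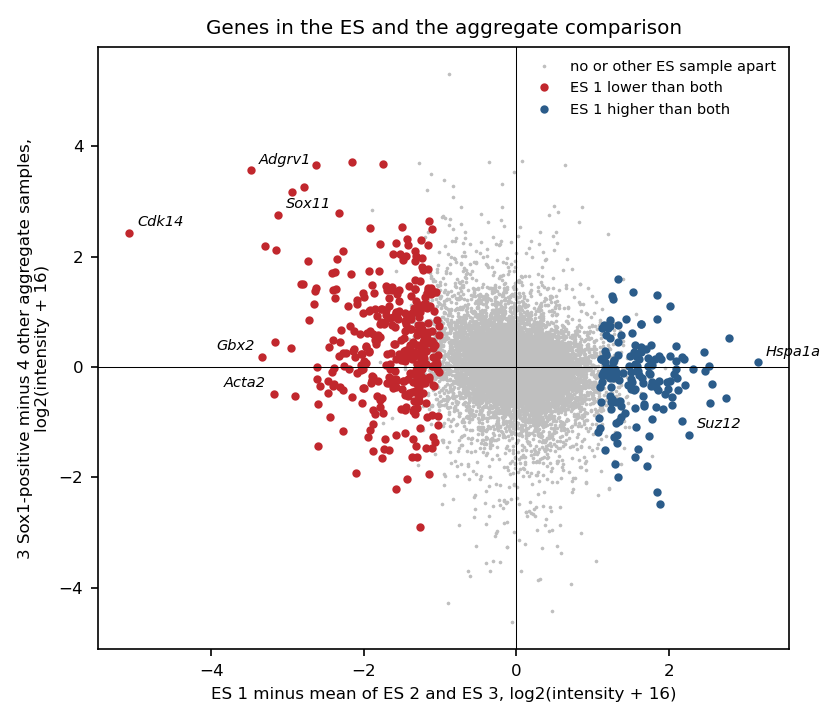
Each of 12941 genes by its ES 1 minus mean of ES 2 and ES 3 difference (horizontal, log2 scale) and its difference of 3 Sox1-positive minus 4 other aggregate samples (vertical, log2 scale), with genes lower than both others in ES 1 in red and higher in blue. Sox11, Cdk14 and Adgrv1 lie at the upper left, while Gbx2 and Acta2 lie near 0 on the vertical axis (0.18 and -0.48).

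Set against the aggregates' own levels, 201 of the 365 genes lower in ES 1 had ES 1 below all 7 aggregates, 160 had it within their range and 4 above. The other samples did likewise: 65 of the 108 genes lower in ES 2 had ES 2 below all 7, and 161 of the 246 lower in ES 3 had ES 3 there. For 94 of the 365 the mean of ES 2 and ES 3 lay above all 7, as for Acta2, Gbx2 and Igf2. The mean of the other 2 ES samples lay above all 7 for 19 of the 108 genes lower in ES 2 and for 50 of the 246 lower in ES 3. The day 1 aggregate was nearer to ES 1 for 156 of the 365 (42.7%) and for 82 of the 152 genes higher in ES 1 (53.9%). For genes lower in ES 2 the day 1 sample was nearer to ES 2 in 24.1%, and for genes lower in ES 3 nearer to ES 3 in 24.0%. Genes with ES 2 higher gave 58.3% and with ES 3 higher 39.6%. Tgm1, a transglutaminase of stratified epithelia, had 78.6 in ES 1, against 553 and 571, and 22.3 to 48.1 in the aggregates. Vgf, a secreted neuropeptide precursor, had 114 in ES 1, against 1242 and 790, and 92.2 to 681 in the aggregates.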

How the data were processed

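RNA of 10 samples had been read on 3 Affymetrix chips each, after polyA RNA amplification and biotin labelling, per the labels' protocols. The deposited intensity values are linear and already scaled: the mean of each array after trimming 2% of values at each end was 500.1 to 500.3. Which software and background method made them is not given in the sources used. Values were analysed as log2(intensity + 16). Of 36899 probe sets 198 controls were left out, and those with a mean intensity at or above the 30th percentile of the chip were tested (25690). Genes were named from GEO's platform annotation: 29131 probe sets name 1 gene, 724 several and 6846 none, and a gene is its brightest probe set (12941 genes). limma 3.58.1 in R 4.3.3 was fitted per chip, with Benjamini-Hochberg adjustment over the 3 chips, for ES 1 against ES 2 and ES 3 (ES samples only) and for the 3 Sox1-positive against the 4 other aggregates. The fits were tested on simulated data.

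Genes to name were the 12 largest differences each way for ES 1 by distance to the nearer sample, where the higher side reached the chip's median intensity, 5 each way for ES 2 and ES 3, the 2 largest each way per list, the 10 smallest adjusted p-values, and Gbx2, Acta2, Sox11, Col4a2, Sox1, Cdh1 and Pou5f1 (77 genes). Members named within lists beyond these were chosen after their values were seen. The 31 lists, the comparison and these rules were chosen with earlier results of these data known. Alternatives covered normalization, pseudocount, filter, probe sets per gene, threshold, spread and left-out samples. The number of arrays limits the precision.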

Additional observations from a re-analysis of the deposited data

How the results depend on the processing

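Of 733 recomputed differences of the 77 named genes, 729 were counted as unchanged and 4 as moved. Unchanged here allowed shifts larger than the SE. Cdk14, for example, went from -5.07 ± 0.40 (SE) to -3.64 with a pseudocount of 64. None changed sign for the 54 named genes with ES 1 apart. Of the other 23, 13 changed sign in 16 values, 13 of them with ES 2 or ES 3 left out. Averaging the probe sets of a gene moved Acta2 to -0.33, Cdk14 to -2.11, Sc5d to -0.43 and Sox4 to -0.36. Averaging also shrank others, for example Adgrv1 from -3.48 to -1.66, Hoxa2 from -2.94 to -1.34, Sox11 from -3.13 to -1.62 and Suz12 from 2.27 to 1.10. The count of genes higher in ES 1 was 99 with a pseudocount of 64, 319 with no filter, 57 with the filter at the 60th percentile, 14 at a threshold of 2, 64 without the U74Cv2 chip (an alternative chosen after seeing the data) and 372 to 611 with ES 3 or ES 2 left out. The count lower in ES 1 was 221, 57, 203 and 581 to 720 under the filter at the 60th percentile, the threshold of 2, the chips without U74Cv2 and the leaving out of ES 3 or ES 2; quantile or loess normalization moved neither count by more than 1.5 times. Leaving a sample out leaves 1 comparison to pass, so more genes pass. The share of genes apart in ES 1 that moved in aggregates was 31.0% at the larger pseudocount (7.66% of all genes), 43.7% without a filter (14.6% of all genes), and 39.0% to 42.3% with ES 2 or ES 3 left out. The limma calls were unstable. For ES 1 they numbered 229 with a mean-variance trend, 151 adjusted within each chip, 33 after scaling to the 75th percentile, 30 and 152 with pseudocounts of 1 and 64, 432 with the filter at the 60th percentile, and 0 with no filter (4078 at an unadjusted p below 0.05), with the spread pooled with Sox1-positive samples (2922) and with either ES 2 or ES 3 left out (2889 and 2137). For the aggregates they numbered 371, against 790 with a trend, 596 within each chip, 201 and 694 with pseudocounts of 1 and 64, 131 with no filter, 679 with the filter at the 60th percentile, and 4 (without day 4) to 2227 (without day 2 E-cadherin-negative cells) when 1 sample was left out; leaving out the day 1, day 2 E-cadherin-positive, day 3 Sox1-negative, day 3 Sox1-positive or day 5 sample gave 15, 5, 17, 83 and 17. The cause of these changes was not tested. No paired analysis was possible because replicate numbers exist for the ES samples alone.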
